A study of Mus musculus with 12 samples.

Results

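The Rag GTPases relay amino acid supply to the kinase mTOR. They were followed with proteins that act on them and the mTORC1 core through 10 genes in mouse embryonic stem cells. The genes were taken by symbol from a list of 10 names. It held the 4 Rag GTPase genes Rraga, Rragb, Rragc and Rragd, the folliculin gene Flcn, the GATOR1 subunit genes Depdc5, Nprl2 and Nprl3, and the mTORC1 core genes Mtor and Rptor. All 10 were found among the 22416 genes of the deposited count table, and all 10 passed the filter on low counts, which left 13229 genes tested. Rragb was chosen by its measured level, which was higher in KI LIF/2i than in WT LIF/2i libraries, and the others by their roles. Every member's difference between KI and WT cells in LIF/2i is therefore given as a description without a p-value, and so is every medium difference of Rragb.

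The knock-in (KI) cells carried eIF2α A/A, in which the phosphorylated serine of the initiation factor subunit eIF2α is replaced by alanine on both alleles. The wild-type (WT) cells were eIF2α+/+. The study asked how phosphorylation of eIF2α acts on the naive state of pluripotency. Each genotype was kept for 6 days with leukaemia inhibitory factor alone (LIF) or with LIF and the MEK inhibitor PD0325901 and the GSK3 inhibitor CHIR99021 (LIF/2i), which gave KI LIF, KI LIF/2i, WT LIF and WT LIF/2i groups of 3 libraries each. All 4 groups shared a medium with KnockOut Serum Replacement and no serum, a cycloheximide wash before lysis, RNA from the cleared lysate and depletion of ribosomal RNA. The labels do not say how many clones or cultures stand behind the replicates, so the p-values measure the spread between these libraries, which may be technical.

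Rag GTPases work as heterodimers of RagA or RagB with RagC or RagD, held on the lysosome by the Ragulator complex. When amino acids are plentiful, RagA or RagB is loaded with GTP and the dimer binds raptor, which brings mTORC1 to its activator Rheb. GATOR1 turns RagA and RagB off, whereas folliculin acts on RagC and RagD, and in mouse embryonic stem cells it is known for keeping the transcription factor Tfe3 out of the nucleus.

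The libraries held 2307219 to 9713857 counts, so that 3 counts, taken as the floor of a library, correspond to 0.309 to 1.3 CPM, that is counts scaled to a common library total. Replicates 1 and 3 of WT LIF differed by less than sampling noise (chi-square per degree of freedom 0.858 over 12373 genes). Their mean stands for a single sample below, so WT LIF has 2 samples and the study 11. Levels are CPM after TMM scaling of the library totals. All 8 of 8 pluripotency markers were detected, with sums of 2606 to 2656 CPM in KI LIF, 2926 to 3304 in KI LIF/2i, 2093 to 2289 in WT LIF and 2879 to 3104 in WT LIF/2i. The 6 of 6 primitive endoderm markers found summed to 4.15 to 14.4 CPM in KI LIF, 6.37 to 8.59 in KI LIF/2i, 23.3 to 32.4 in WT LIF and 9.46 to 20.1 in WT LIF/2i, and Sox17, Sox7 and Foxq1 were at 0 in at least some libraries. The 6 of 6 trophectoderm markers summed to 202 to 230 CPM in KI LIF, 76.6 to 215 in KI LIF/2i, 314 to 393 in WT LIF and 118 to 146 in WT LIF/2i, with a median of 0 for Elf5. Tfap2c had the highest median of them, 151 CPM, followed by Krt18 with 14.1 CPM, and Cdx2 reached at most 1.67 CPM. In their highest samples Krt18 reached 93.8, Krt8 70.5 and Gata3 20.9 CPM. The 8 of 8 fibroblast markers summed to 232 to 547 CPM in KI LIF, 94 to 459 in KI LIF/2i, 128 to 673 in WT LIF and 105 to 363 in WT LIF/2i, and Dcn and Lum had a median of 0. Vim had the highest median of these, 135 CPM, followed by Col1a1 with 10.6 CPM. In their highest samples Vim reached 462, Col1a2 206 and Col1a1 169 CPM. The part of such cells in the differences described here was not tested. Counts per gene do not show the substitution, so Eif2s1, at 31 to 57.6 CPM in KI and 23.3 to 32.7 CPM in WT samples, checks nothing about the labels.

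The sequence before each Rag gene is shown because the 4 genes encode alternative partners of the same dimer. The lines run from 150 bases before to 10 bases after the gene's start in the RefSeq annotation of GRCm38.p6, plus strand, with the hexamer CACGTG in capitals, the core of the E-box bound by Myc and by the Tfeb, Tfe3 and Mitf family. They cover X:153139808-153139967, 4:86575523-86575682, 4:123917283-123917442 and 4:32982848-32983007.
Rragb: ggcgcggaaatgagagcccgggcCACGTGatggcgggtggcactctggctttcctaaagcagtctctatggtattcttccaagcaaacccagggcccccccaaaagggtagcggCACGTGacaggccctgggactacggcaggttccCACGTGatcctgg
Rraga: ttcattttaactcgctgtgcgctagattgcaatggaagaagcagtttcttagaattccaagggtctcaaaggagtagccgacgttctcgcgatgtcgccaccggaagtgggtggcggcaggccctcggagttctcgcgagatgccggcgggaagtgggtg
Rragc: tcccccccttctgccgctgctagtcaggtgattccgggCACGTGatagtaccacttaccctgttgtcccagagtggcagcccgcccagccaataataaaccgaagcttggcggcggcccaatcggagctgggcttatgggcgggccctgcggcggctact
Rragd: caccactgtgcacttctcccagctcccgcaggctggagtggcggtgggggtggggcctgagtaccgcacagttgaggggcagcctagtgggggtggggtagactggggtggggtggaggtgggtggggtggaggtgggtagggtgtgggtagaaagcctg
Rragb held CACGTG at 3 places, beginning at -127, -36 and -3 relative to the start, and Rragc held it once, at -112. The other 8 members had none in the 300 bases searched. CACGTG reads the same on both strands, and 7.15% of 32851 RefSeq promoters of that length contained it, while 29 of them, 0.0883%, contained it at 3 or more places. The letters TGATGNAAN, a core of the element bound by Atf4 with C/EBP factors, were searched on both strands. They were in none of the 10 promoters and in 3.95% of all. These matches describe the letters only.

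Rragb, which encodes the RagB GTPase, was the member that differed most between the genotypes. It lies at X:153139981-153171943 on the plus strand in GENCODE M21 (GRCm38) and has 11 coding exons. Its level was 21.1, 34.6 and 32.6 CPM in the KI LIF libraries, 5.01, 26.1 and 32.2 CPM in the KI LIF/2i libraries, 7.91 (replicates 1 and 3) and 6.52 CPM in WT LIF, and 2.69, 2.0 and 1.52 CPM in WT LIF/2i. Every KI library was above every WT library of the same medium, and KI LIF/2i replicate 1 was the lowest KI library. The WT LIF/2i values rest on 17, 15 and 5 counts. In LIF/2i, the contrast that chose it, Rragb averaged 21.1 ± 14.3 CPM in KI cells and 2.07 ± 0.586 CPM in WT cells (SD, n = 3 each), a log2 difference of 3.29 ± 0.59 (SE).

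In LIF, whose libraries the choice did not use, Rragb averaged 29.4 ± 7.28 CPM in KI cells (n = 3) and 7.22 ± 0.987 CPM in WT cells (n = 2). The log2 difference was 2.03 ± 0.61 and did not pass edgeR's quasi-likelihood test (Benjamini-Hochberg adjusted p = 0.246, unadjusted p = 0.00589). It passed with DESeq2 (adjusted p = 0.0384) and in the edgeR test when KI LIF/2i replicate 1 was left out (adjusted p = 0.0145). That library is not part of the LIF comparison, and without it the log2 difference was 2.02. The 4 groups share 1 estimate of the spread, so these p-values also depend on the LIF/2i libraries that the choice used. KI samples of replicate 1 also deviated together across the media (r = 0.524), as did those of replicate 2 (r = 0.405). The LIF values of Rragb are therefore not independent of the libraries that chose it. Over 18 alternatives the log2 difference stayed between 1.88 and 2.22, with an adjusted p of 0.0145 to 0.806. KI LIF stood above WT LIF without overlap for 15.9% of all genes tested, and 0.144% of genes were called in that comparison. In these bulk libraries fewer cells that express a gene and less RNA per cell cannot be told apart.

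KI replicate 1 had the lowest Rragb of its group in both media. Against the WT mean of the same medium its log2 ratio was 1.49 in LIF and 1.13 in LIF/2i, whereas replicates 2 and 3 had 2.19 and 2.11 in LIF and 3.4 and 3.7 in LIF/2i. The same replicates differed elsewhere in the genome. Y-linked genes summed to 36.7 CPM in KI LIF replicate 1, against 2.17 and 3.9 CPM in replicates 2 and 3, and to 41.6 CPM in KI LIF/2i replicate 1, against 1.86 and 1.43 CPM. WT samples ranged from 44.8 to 261 CPM. Whether these differences within KI bear on Rragb was not tested.

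**Figure D1:**
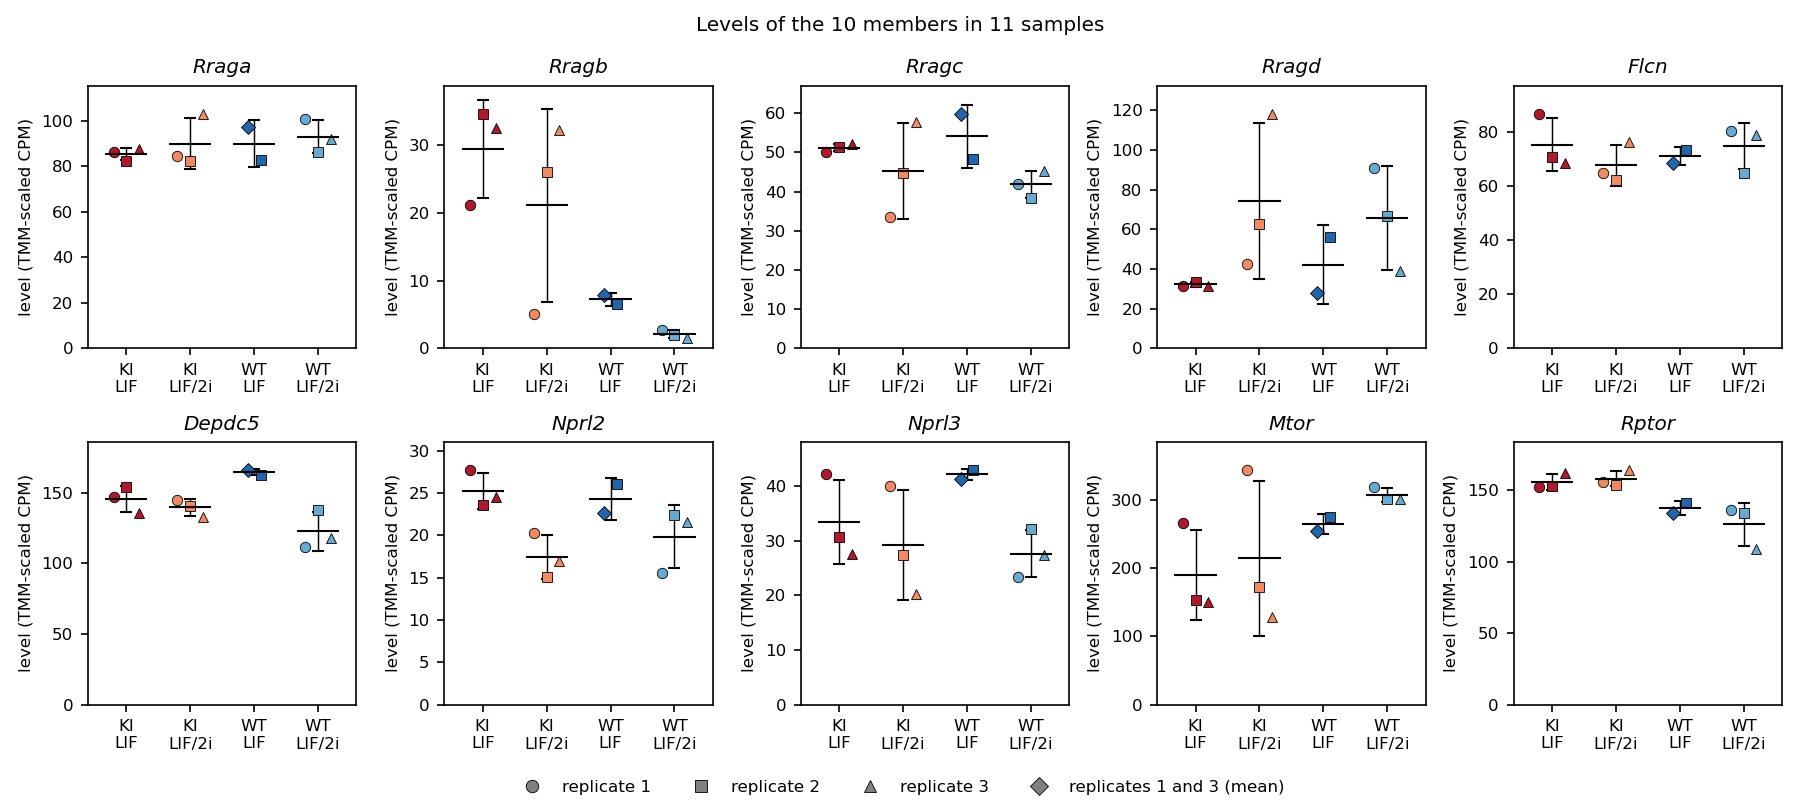
TMM-scaled CPM of each member in the 11 samples, by group along the x axis. Horizontal lines are group means, bars are 1 SD, and symbols mark the replicate number. Rragb is higher in every KI sample than in the WT samples of the same medium, and Mtor separates KI replicates 2 and 3 from all other samples.

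Between media Rragb is described only. In WT cells both LIF samples were above the 3 LIF/2i libraries, a log2 difference of 1.75 ± 0.65, while in KI cells the media overlapped, with a log2 difference of 0.49 ± 0.49. The median of the genes around it stayed near the WT level. For the 16 nearest genes with at least 5 CPM, the median log2 ratio to WT lay between -0.07 and 0.10 in all 6 KI libraries. Klf8 and Ubqln2, the next genes after it, had log2 differences between KI and WT of -0.11 and 0.06 in LIF/2i and 0.29 and 0.11 in LIF. Beyond them, Kctd12b, at 0 to 3.03 CPM, had -2.75 and -1.35, and Nbdy 0.17 and -0.29. Before Rragb, Gpr143, Usp51 and Mageh1 had -1.40, 0.28 and -0.15 in LIF/2i and 0.32, 0.87 and 1.08 in LIF. Usp51 and Mageh1, at no more than 7.62 CPM, were above both WT samples in every KI LIF library, as were 15.9% of all genes. Foxr2, a forkhead factor gene just before Rragb at X:153118786-153132861, had 2.42, 2.29 and 2.54 CPM in KI LIF, 0.209, 1.99 and 2.18 CPM in KI LIF/2i, 0.554 and 1.52 CPM in WT LIF, and 0.158, 0.266 and 0.304 CPM in WT LIF/2i. Its log2 differences of 2.48 in LIF/2i and 1.19 in LIF had the sign of those of Rragb, at low levels. In every WT LIF/2i library and in KI LIF/2i replicate 1 it was below the floor of 3 counts. Over the 453 X-linked genes tested the median log2 difference was 0.05 in LIF/2i and 0.02 in LIF, against 0.02 and 0.00 for all genes.

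The genes whose log2 level followed Rragb most closely over the 11 samples lay on other chromosomes. They were Sult6b1 (Pearson r 0.98, chromosome 17), Tubgcp2 (0.97, chromosome 7), Chchd1 (0.97, chromosome 14), Celsr3 (0.97, chromosome 9) and Psmd13 (0.96, chromosome 7). The samples share genotype and medium, so these values describe likeness only. Celsr3, an atypical cadherin gene, had 63, 127 and 98.6 CPM in KI LIF, 16, 78.5 and 80.6 in KI LIF/2i, 41.9 and 39 in WT LIF, and 13.9, 9.99 and 14.3 in WT LIF/2i. Tubgcp2, which encodes a subunit of the γ-tubulin complex, spanned a far smaller range, from 132 to 197 CPM in KI and from 97 to 135 CPM in WT samples. KI LIF/2i replicate 1 was the lowest KI library for all 5 genes, as it was for Rragb.

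Rraga encodes RagA, the close relative of RagB, in a single coding exon at 4:86575668-86577285. The coding sequences of Rraga and Rragb were 82.7% identical over 939 aligned bases, and the stretches where they are most alike are shown because reads that fit both genes could be given to the wrong one. They are bases 7 to 96 of the Rraga and 106 to 195 of the Rragb coding sequence (GENCODE M21, plus strand), with the 10 differing bases in capitals.
Rraga: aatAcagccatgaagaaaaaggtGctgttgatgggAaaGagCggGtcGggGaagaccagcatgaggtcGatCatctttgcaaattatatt
Rragb: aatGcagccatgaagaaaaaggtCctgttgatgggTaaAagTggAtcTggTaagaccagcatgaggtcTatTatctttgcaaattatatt
The longest run without a difference was 26 bases, and none of the 1093 stretches of 30 bases in Rragb occurred in Rraga or in another gene's coding sequence. How reads with several matches were counted is not given in the sources used here.

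Rraga barely varied. It had 86.5, 82.4 and 87.6 CPM in KI LIF, 84.7, 82.3 and 103 CPM in KI LIF/2i, 97.4 and 82.6 CPM in WT LIF, and 101, 86.3 and 92.1 CPM in WT LIF/2i, and the groups overlapped in all 4 comparisons. Its log2 difference between KI and WT was -0.06 ± 0.13 in LIF/2i and -0.08 ± 0.15 in LIF (edgeR, adjusted p = 0.908), and between LIF and LIF/2i it was -0.07 ± 0.14 in KI and -0.05 ± 0.15 in WT (adjusted p = 0.817 and 0.876). Per kb of coding sequence, the scale on which genes can be set side by side, Rraga averaged 91.1 CPM per kb in KI LIF, 95.7 in KI LIF/2i, 95.9 in WT LIF and 99.4 in WT LIF/2i. Rragb averaged 26.2, 18.8, 6.43 and 1.84 CPM per kb in the same groups, and was thus below Rraga throughout.

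On that scale Rragb made up 17, 26 and 23.7% of the summed Rragb and Rraga level in KI LIF and 4.72, 21 and 20.8% in KI LIF/2i, against 6.37 and 6.19% in WT LIF and 2.17, 1.9 and 1.36% in WT LIF/2i. The mean of Rragb in KI LIF/2i was 18.8 ± 12.7 CPM per kb, against 15.3 ± 2.31 for the GATOR1 gene Nprl2 and 17.1 ± 5.87 for Nprl3. It averages 3 unlike libraries, with 5.01, 26.1 and 32.2 CPM of Rragb. In WT LIF/2i Rragb was the lowest of the 10, at 1.84 ± 0.522 CPM per kb, against 16.2 ± 2.56 for Nprl3, the next lowest.

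**Figure D2:**
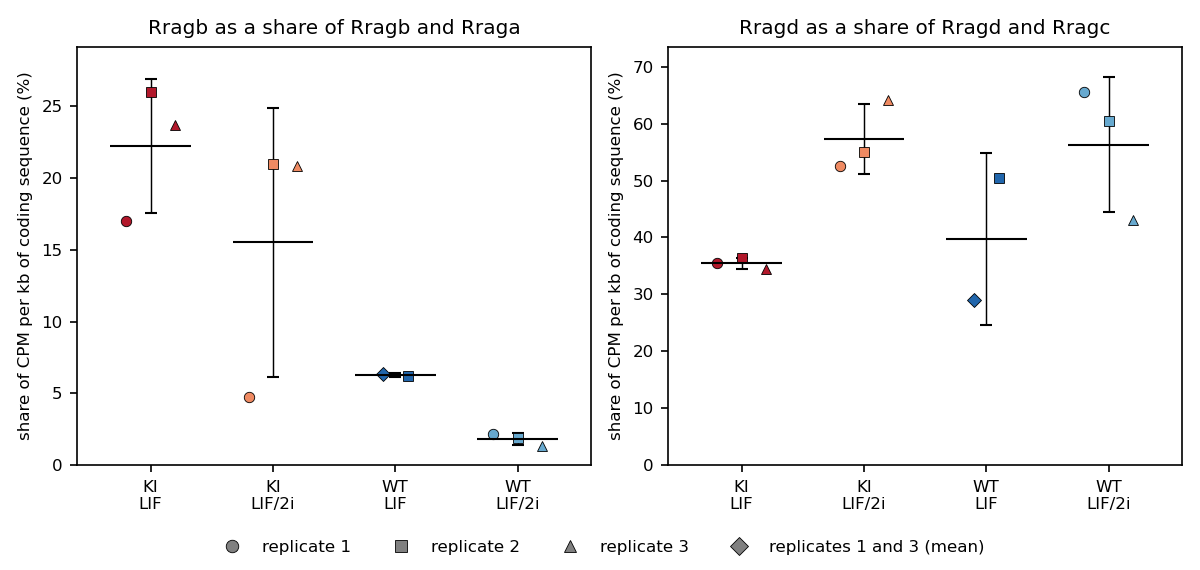
Share of Rragb in the summed level of Rragb and Rraga (left) and of Rragd in that of Rragd and Rragc (right), in percent of CPM per kb of coding sequence, per sample and group. Lines are means and bars 1 SD. The Rragb share averaged 22.2% in KI LIF and 15.5% in KI LIF/2i, against 6.28% in WT LIF and 1.81% in WT LIF/2i. The mean Rragd share was lowest in KI LIF, at 35.5%, while the lowest sample was WT LIF replicates 1 and 3, at 29%.

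Rragd and Rragc encode RagD and RagC, the alternative partners in the dimer. Rragd had 31.5, 33.6 and 31.3 CPM in KI LIF, 42.3, 62.4 and 118 CPM in KI LIF/2i, 27.9 and 56.1 CPM in WT LIF, and 91, 66.9 and 38.9 CPM in WT LIF/2i. The 3 KI LIF libraries lay close together and below every KI LIF/2i library, whereas the WT media overlapped. The log2 difference between LIF and LIF/2i was -1.20 ± 0.40 in KI cells and missed the threshold (edgeR, adjusted p = 0.0846, unadjusted p = 0.0107). An edgeR fit of the 6 KI libraries with replicate number as a block, added after the data were seen, gave -1.06 and passed (adjusted p = 0.0235). The difference also passed with DESeq2 (adjusted p = 0.0286) and when KI LIF/2i replicate 1 was left out (-1.48, adjusted p = 0.03). Leaving out KI LIF/2i replicate 3, which had 118 CPM, gave -0.70 (adjusted p = 0.287). In WT cells the difference was -0.65 ± 0.44 (adjusted p = 0.377), and the difference between the genotypes in this response was -0.55 ± 0.58 (adjusted p = 0.944).

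Rragc was steadier, with 50.2, 51.5 and 52.1 CPM in KI LIF, 33.4, 44.8 and 57.9 in KI LIF/2i, 59.8 and 48.4 in WT LIF, and 41.9, 38.5 and 45.3 in WT LIF/2i. Both WT LIF samples were above the WT LIF/2i libraries, but the log2 difference of 0.37 ± 0.21 did not pass (edgeR, adjusted p = 0.295), and the KI media overlapped (0.18 ± 0.19, adjusted p = 0.642). KI and WT overlapped in both media, with log2 differences of 0.11 ± 0.19 in LIF/2i and -0.08 ± 0.22 in LIF (adjusted p = 0.943). Rragc values carry a doubt of their own, because 29 of its 1165 stretches of 30 bases also occur in the predicted gene Gm49775 and 234 bases of it overlap an antisense transcript, 4930535I16Rik. The Rragd share of the summed Rragd and Rragc level was 35.5 ± 0.917% in KI LIF and 57.3 ± 6.14% in KI LIF/2i, against 39.7 ± 15.2% in WT LIF (n = 2) and 56.3 ± 11.8% in WT LIF/2i (SD, n = 3 where not given).

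Flcn, which encodes folliculin, the protein that promotes GTP hydrolysis by RagC and RagD, had 86.5, 70.7 and 68.6 CPM in KI LIF, 64.6, 62 and 76.2 in KI LIF/2i, 68.6 and 73.4 in WT LIF, and 80.4, 64.8 and 78.8 in WT LIF/2i. The groups overlapped in every comparison, and no log2 difference exceeded 0.16 in size among the 4. They were -0.14 ± 0.15 for KI against WT in LIF/2i, 0.08 ± 0.17 in LIF (edgeR, adjusted p = 0.908), 0.16 ± 0.15 for LIF against LIF/2i in KI (adjusted p = 0.597) and -0.07 ± 0.17 in WT (adjusted p = 0.843).

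Among the GATOR1 genes, Depdc5, whose product contacts the Rag dimer, came nearest to a medium difference in WT cells. It had 147, 154 and 136 CPM in KI LIF, 145, 141 and 133 in KI LIF/2i, 166 and 163 in WT LIF, and 112, 138 and 118 in WT LIF/2i. Both WT LIF samples were above all others, and the KI media overlapped. The log2 difference between LIF and LIF/2i in WT was 0.42 ± 0.13 (edgeR, adjusted p = 0.0581), just above the threshold of 0.05. It passed in 4 of 18 alternatives, among them DESeq2 (adjusted p = 0.023) and 12 libraries counted separately (adjusted p = 0.0177), and the adjusted p ranged up to 0.238. In KI cells the difference was 0.06 ± 0.12 (adjusted p = 0.813), and the test of the difference between the genotypes gave -0.36 ± 0.18 (adjusted p = 0.848, unadjusted p = 0.0716). In LIF all KI libraries were below both WT samples, with a log2 difference of -0.17 ± 0.14 (adjusted p = 0.705).

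Nprl2 and Nprl3 encode the catalytic and the remaining subunit of GATOR1. Nprl2 had 27.7, 23.6 and 24.5 CPM in KI LIF, 20.3, 15.1 and 17 in KI LIF/2i, 22.6 and 26.1 in WT LIF, and 15.6, 22.4 and 21.6 in WT LIF/2i. All LIF libraries were above the LIF/2i libraries of their genotype. The log2 differences were 0.53 ± 0.21 in KI (edgeR, adjusted p = 0.145) and 0.29 ± 0.23 in WT (adjusted p = 0.459), and neither passed.

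Nprl3 had 42.2, 30.7 and 27.5 CPM in KI LIF, 40.1, 27.4 and 20.3 in KI LIF/2i, 41.4 and 42.9 in WT LIF, and 23.4, 32.1 and 27.4 in WT LIF/2i. WT LIF was above WT LIF/2i by 0.61 ± 0.28 on the log2 scale (edgeR, adjusted p = 0.181), and the KI media overlapped (0.19 ± 0.26, adjusted p = 0.726). KI replicate 1 had the highest level of its group in both media. The 16 genes nearest to Nprl3 had median log2 ratios to WT of -0.18 to 0.16 in the 6 KI libraries.

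Mtor, the gene of the kinase itself, at 4:148448611-148557683, had 266, 153 and 151 CPM in KI LIF, 344, 172 and 129 CPM in KI LIF/2i, 255 and 275 CPM in WT LIF, and 320, 302 and 302 CPM in WT LIF/2i. KI replicate 1 lay within or above the WT range in both media, and KI replicates 2 and 3 were below every WT sample. The group difference was therefore small against the spread. The log2 difference between KI and WT was -0.52 ± 0.31 in LIF/2i and -0.48 ± 0.35 in LIF (edgeR, adjusted p = 0.673). Over 18 alternatives it ranged in LIF/2i from -1.05, without KI LIF/2i replicate 1, to -0.26, without KI LIF/2i replicate 3. In LIF it ranged from -0.80, without KI LIF replicate 1, to -0.34, without KI LIF replicate 3, and the adjusted p over the 18 was 0.287 to 0.95.

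Mtor shared this pattern with the end of chromosome 4. Of the 147 genes within 10 Mb of it, 140 and 141 were below the WT mean in KI LIF replicates 2 and 3, with median log2 ratios of -0.83 and -0.88, and 142 and 138 in KI LIF/2i replicates 2 and 3, with -0.83 and -1.01. In KI replicate 1 the medians were 0.06 in LIF and 0.08 in LIF/2i. Mtor itself had log2 ratios of -0.79 and -0.81 in KI LIF replicates 2 and 3, -0.84 and -1.25 in KI LIF/2i replicates 2 and 3, and 0.01 and 0.16 in KI replicate 1 of LIF and LIF/2i.

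The division of the chromosome that best separated lower from other genes fell in the same place in all 4 libraries, between Srsf4, which starts at 131873617, and Epb41, which starts at 131923413, at -16.5 Mb from the start of Mtor. The 240 genes from there to the end had medians of -0.89 and -0.92 in KI LIF replicates 2 and 3 and of -0.84 and -0.99 in KI LIF/2i replicates 2 and 3, whereas the 444 genes before it had medians of -0.00, 0.01, 0.06 and 0.10. Rragc, Rraga and Rragd, at -24.5, -61.9 and -115 Mb from Mtor, lie outside that stretch. These ratios were computed on CPM with 0.5 added, for genes with a mean of at least 5 CPM. A different number of copies of this stretch and lower expression from it cannot be told apart in RNA counts, and the part of either in the level of Mtor was not tested.

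**Figure D3:**
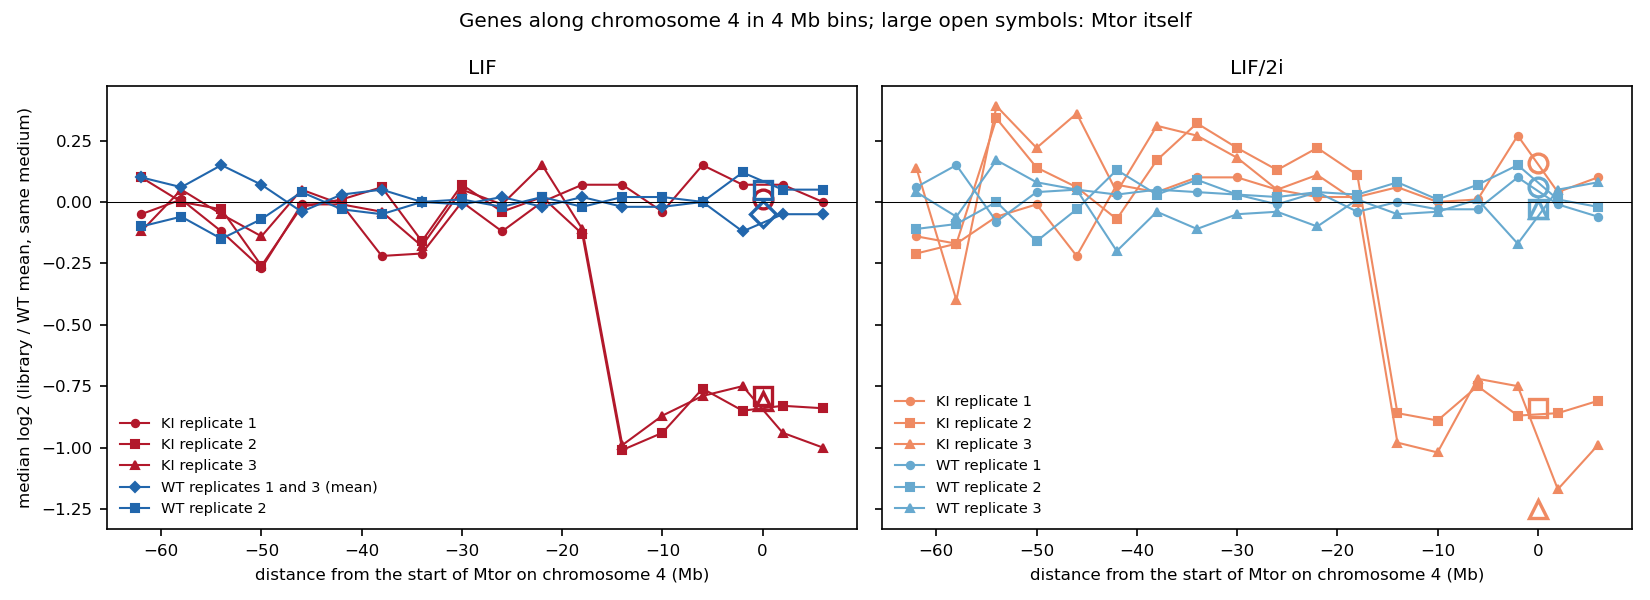
Median log2 ratio of each sample to the WT mean of the same medium (y axis) for genes in 4 Mb bins along chromosome 4, by distance from the start of Mtor in Mb (x axis), in LIF (left) and LIF/2i (right). Large open symbols are Mtor itself. KI replicates 2 and 3 drop to between -0.72 and -1.17 beyond the bin that holds -16.5 Mb, and KI replicate 1 and the WT samples stay near 0.

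The amino acid sensor gene Sesn2, whose product binds leucine and releases GATOR2, lies in the same stretch, at -16 Mb from Mtor. It had 189, 41.9 and 49.9 CPM in KI LIF, 114, 39 and 55.9 in KI LIF/2i, 142 and 136 in WT LIF, and 152, 135 and 126 in WT LIF/2i. Its log2 ratios to WT of -1.72 and -1.47 in KI LIF replicates 2 and 3 and of -1.81 and -1.29 in KI LIF/2i replicates 2 and 3 were further from 0 than the medians of the 240 genes.

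Rptor encodes raptor, the subunit that binds the Rag dimer and the substrates. It had 152, 153 and 162 CPM in KI LIF, 156, 154 and 164 in KI LIF/2i, 134 and 141 in WT LIF, and 136, 134 and 109 in WT LIF/2i. Every KI library was above every WT sample of the same medium, by a log2 difference of 0.32 ± 0.12 in LIF/2i and 0.17 ± 0.13 in LIF (edgeR, adjusted p = 0.704). An antisense transcript, Rptoros, overlaps 84 bases of its coding sequence, and whether strand was used in counting is not given in the sources used here. The media differed by -0.03 ± 0.12 in KI and 0.12 ± 0.13 in WT (adjusted p = 0.93 and 0.624).

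Counted over the 10 members, Rragb alone was past an adjusted p of 0.05 for KI against WT in LIF/2i, where 2.21% of all genes were called. That call chose it and is no support. In LIF none of the 10 was called, and Rragb alone had an unadjusted p under 0.05, as did 10.7% of all genes. Between LIF and LIF/2i none was called in KI, where 9.05% of genes were, and none in WT, where 13.0% were. DESeq2 called Rragb in LIF, where it called 1.77% of genes. Between the media, with Rragb left aside, DESeq2 called Rragd in KI, where it called 12.3% of genes, and Depdc5 in WT, where it called 16.7%. In the edgeR test of the media, Rragd and Nprl2 had an unadjusted p under 0.05 in KI, as did 23.7% of genes, and Depdc5 and Nprl3 in WT, as did 27.5%.

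Groups without overlap were found for Rragb and Rptor, higher in KI than in WT in LIF/2i (11.7% of all genes) and in LIF (15.9%), and for Depdc5, lower in KI in LIF (15.9%). No member was lower in KI without overlap in LIF/2i (11.1%). In LIF against LIF/2i, Nprl2 was higher (13.3% of genes) and Rragd lower (13.9%) in KI cells, while Rragb, Rragc, Depdc5, Nprl2 and Nprl3 were higher (24.2%) and Mtor lower (24.5%) in WT cells. The LIF/2i libraries chose Rragb, so its separation in LIF/2i and between the WT media is a description and no support. The medians that follow include Rragb as well. The median log2 difference of the members between KI and WT was 0.10 in LIF/2i and -0.08 in LIF, and between LIF and LIF/2i it was 0.11 in KI and 0.21 in WT, beside 0.02, 0.00, -0.03 and 0.01 over all genes. The test of whether the genotype difference changed with the medium called none of the 13229 genes with edgeR (791 had an unadjusted p under 0.05) and 22 with DESeq2.

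**Figure D4:**
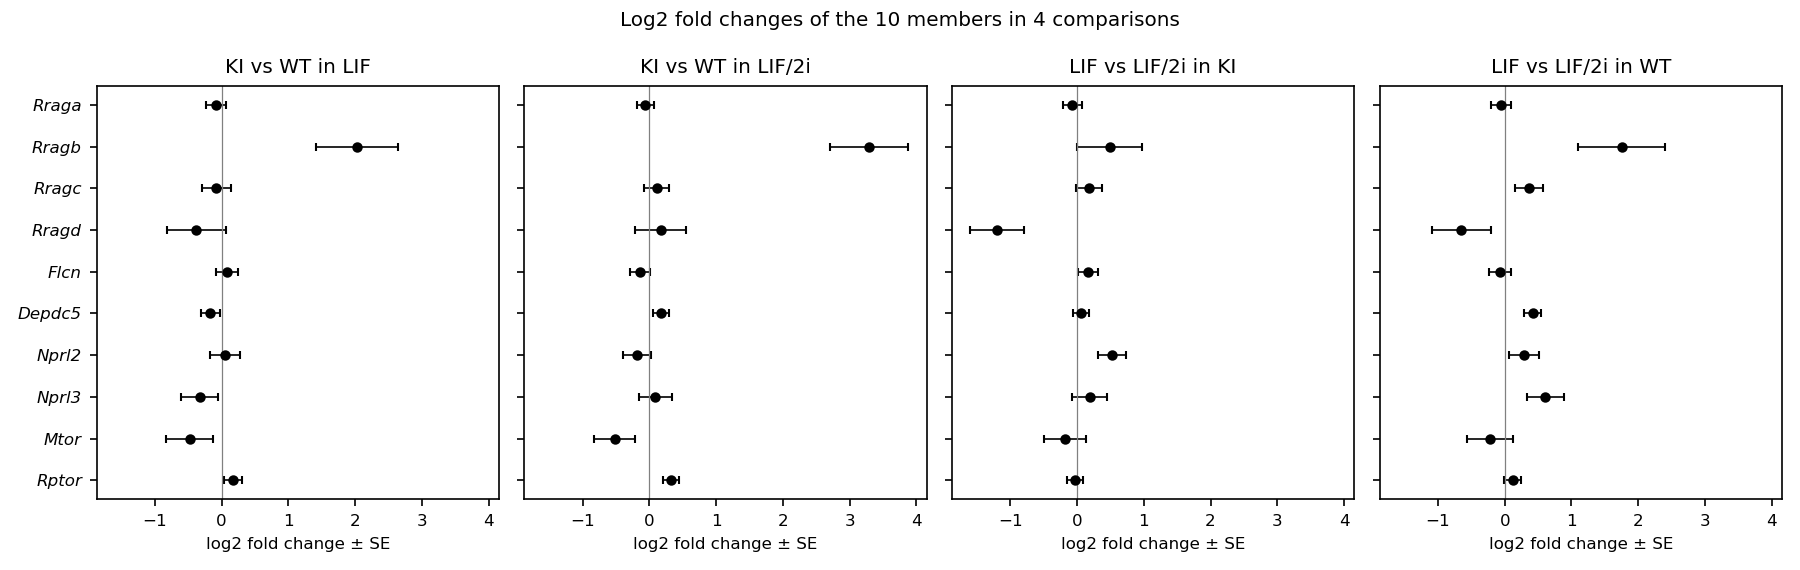
Log2 fold change with its SE (x axis) of each member (y axis) in the 4 comparisons. Rragb stands apart for KI against WT, at 2.03 in LIF and 3.29 in LIF/2i, and Rragd is the lowest point for LIF against LIF/2i in KI, at -1.20.

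The pathway around the members was read through 45 further genes in 8 lists, of which 44 were tested. Tfec was under the filter. Between LIF and LIF/2i, none of the 44 rose and 3 fell in KI cells, beside 4.05% and 5.00% of all genes. In WT cells 2 rose and 2 fell, beside 6.30% and 6.65% of all genes. The median log2 difference of the 44 was 0.05 in KI and 0.03 in WT, beside -0.03 and 0.01 over all genes. For KI against WT in LIF/2i, edgeR called 1 gene and DESeq2 4, beside 2.21% and 6.93% of all genes. In LIF neither tool called any, and 5 had an unadjusted p under 0.05, as did 10.7% of all genes. The medians for KI against WT were 0.05 in LIF/2i and -0.03 in LIF.

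Of the 5 tested genes in the list of folliculin partners and MiT factors, 2 fell in LIF in KI and 1 in WT. MiT transcription factors switch on lysosomal genes, and mTORC1 holds them in the cytoplasm through the Rag dimer. Mitf had 12.1, 5.01 and 5.08 CPM in KI LIF, 61, 36.6 and 21.3 in KI LIF/2i, 6.81 and 7.58 in WT LIF, and 51, 28.2 and 19.5 in WT LIF/2i, so that all LIF samples were below all LIF/2i libraries. It fell by 2.44 ± 0.49 on the log2 scale in KI (edgeR, adjusted p = 0.00957) and by 2.20 ± 0.54 in WT (adjusted p = 0.0194). The KI call was lost without KI LIF replicate 2 or 3, and the WT call without WT LIF replicate 2, WT LIF/2i replicate 1 or the agreeing WT LIF pair, with an adjusted p of up to 0.0555 in KI and 0.13 in WT. The 16 genes nearest to Mitf had median log2 ratios to WT of 0.55, -0.12 and -0.11 in the KI LIF libraries and of 0.59, -0.09 and 0.39 in the KI LIF/2i libraries.

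Tfeb had 19.4, 16.7 and 20.7 CPM in KI LIF, 77.5, 46.4 and 28.9 in KI LIF/2i, 21.5 and 28.6 in WT LIF, and 68.4, 39.7 and 42.6 in WT LIF/2i. It fell by 1.44 ± 0.34 on the log2 scale in KI (edgeR, adjusted p = 0.0216), a call lost without KI LIF replicate 2 or 3 or KI LIF/2i replicate 1 (adjusted p up to 0.0974), and in WT the difference of -1.0 ± 0.37 did not pass (adjusted p = 0.0986). The third factor, Tfe3, named after its values were seen, went the other way, with 127, 114 and 147 CPM in KI LIF, 69.4, 98 and 99.7 in KI LIF/2i, 85.3 and 84.6 in WT LIF, and 62.4, 62 and 46.2 in WT LIF/2i. Its log2 differences of 0.54 ± 0.18 in KI and 0.57 ± 0.20 in WT missed the threshold (adjusted p = 0.0796 and 0.0746). Tfe3 was also higher in KI than in WT without overlap in LIF/2i (11.7% of all genes) and in LIF (15.9%). Those log2 differences, 0.64 ± 0.18 and 0.60 ± 0.20, did not pass either (edgeR, adjusted p = 0.0807 and 0.281). The folliculin partners Fnip1 and Fnip2 were not called in any comparison.

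Deptor, an inhibitory subunit of both mTOR complexes, had 20.8, 27.7 and 22.4 CPM in KI LIF, 35.8, 32.5 and 34.9 in KI LIF/2i, 22.6 and 13.9 in WT LIF, and 58, 53.7 and 58.7 in WT LIF/2i. It fell by 1.63 ± 0.23 on the log2 scale in WT (edgeR, adjusted p = 0.00136), a call kept in all 18 alternatives, and differed by -0.53 ± 0.20 in KI (adjusted p = 0.124). The difference between the genotypes in this response was 1.10 ± 0.30 and did not pass (adjusted p = 0.696, unadjusted p = 0.00305). Prr5l, a partner of mTORC2, rose by 2.60 ± 0.77 in WT (edgeR, adjusted p = 0.0437), and 9 of 18 alternatives did not call it. It had 1.19 and 2.58 CPM in WT LIF and at most 3.39 CPM in any sample. In WT LIF/2i it had 0.316, 0.266 and 0.304 CPM, below the floor of 3 counts in every library. Rictor and Mapkap1, the most abundant of that list, were not called.

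Tbc1d7, the smallest subunit of the TSC complex that turns Rheb off, had 29.8, 22.5 and 26.2 CPM in KI LIF, 18.5, 13.3 and 17 in KI LIF/2i, 29.8 and 27.7 in WT LIF, and 6.32, 12.7 and 7.91 in WT LIF/2i. It rose by 1.67 ± 0.29 on the log2 scale in WT (edgeR, adjusted p = 0.00389, called in all 18 alternatives), and the KI difference of 0.68 ± 0.26 did not pass (adjusted p = 0.131). Its partners Tsc1 and Tsc2 were not called. Ulk1, the autophagy kinase that mTORC1 restrains, had 454, 467 and 431 CPM in KI LIF, 547, 837 and 793 in KI LIF/2i, 582 and 606 in WT LIF, and 832, 844 and 872 in WT LIF/2i. It fell by 0.69 ± 0.15 in KI (adjusted p = 0.0144, lost without KI LIF replicate 3, adjusted p = 0.0715), and the WT difference was -0.52 ± 0.17 (adjusted p = 0.063).

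**Figure D5:**
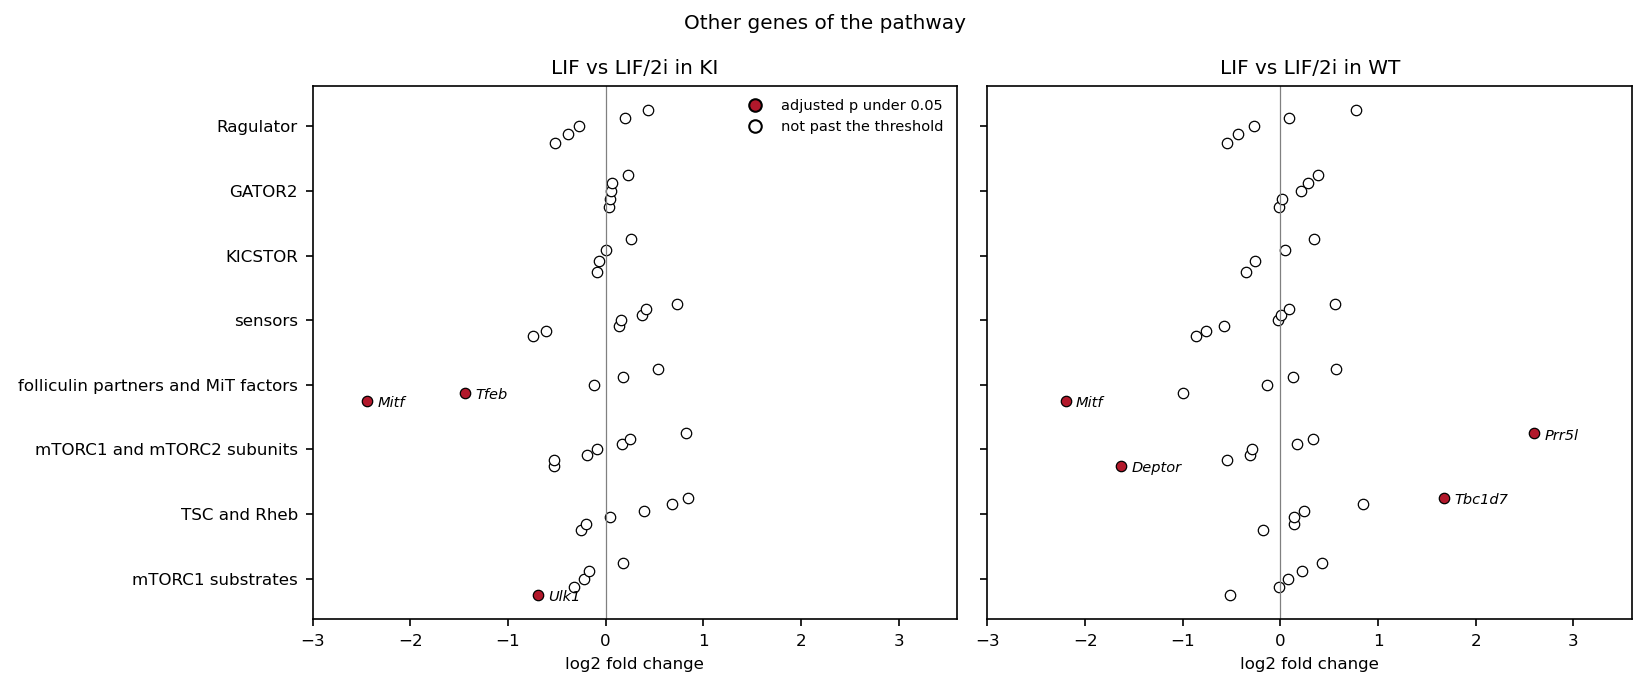
Log2 fold change between LIF and LIF/2i (x axis) of the 44 tested pathway genes by list (y axis), in KI (left) and WT (right). Filled points are past an adjusted p of 0.05, 3 in KI, all lower in LIF, and 4 in WT, 2 of them higher.

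For KI against WT the called gene in LIF/2i was Castor1, which encodes an arginine sensor that holds GATOR2 back. It had 40.5, 29.2 and 25.8 CPM in KI LIF, 33.2, 25.8 and 27.4 in KI LIF/2i, 39.5 and 41.1 in WT LIF, and 59.1, 62.6 and 59.3 in WT LIF/2i. Its log2 difference was -1.07 ± 0.18 in LIF/2i (edgeR, adjusted p = 0.0134), where 2.21% of genes were called. The call was lost without KI LIF/2i replicate 2 or 3 or WT LIF/2i replicate 1 or 2 (adjusted p up to 0.0602). In LIF the groups overlapped and the difference was -0.34 ± 0.21 (edgeR, adjusted p = 0.597). The 7 sensor genes had a median of -0.41 in LIF/2i and -0.16 in LIF, and the 5 GATOR2 genes, which oppose GATOR1, a median of 0.42 in LIF/2i and 0.22 in LIF. None of the GATOR2 genes was called by edgeR, while 3 of them had an unadjusted p under 0.05 in LIF/2i, as did 20.5% of all genes, and none in LIF. Seh1l, the most abundant of them, had 163, 189 and 232 CPM in KI LIF, 171, 185 and 204 in KI LIF/2i, 187 and 173 in WT LIF, and 200, 169 and 164 in WT LIF/2i, and its groups overlapped in both media (log2 difference 0.07 ± 0.15 in LIF/2i). Sec13, the next, a GATOR2 gene shared with the nuclear pore and COPII coats, had 144, 95.3 and 113 CPM in KI LIF, 138, 104 and 97.3 in KI LIF/2i, 102 and 99.3 in WT LIF, and 77.4, 92.1 and 78.4 in WT LIF/2i, so that the KI and WT libraries overlapped in LIF and not in LIF/2i, where 11.7% of all genes stood higher in KI without overlap.

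None of the 5 Ragulator genes, which anchor the Rag dimer, or of the 4 KICSTOR genes, which anchor GATOR1, was called in any of these 4 comparisons with edgeR or DESeq2, and none had an unadjusted p under 0.05 with edgeR. Lamtor5 was lower in KI than in WT without overlap in LIF/2i (11.1% of all genes) and in LIF (15.9%). Its log2 differences were -0.53 ± 0.31 and -0.78 ± 0.36. Itfg2 was higher in KI without overlap in LIF/2i (0.40 ± 0.27, 11.7% of all genes). Between the WT media, Lamtor1, Lamtor4 and the KICSTOR gene BC048403 were lower in LIF without overlap (24.5% of all genes). Lamtor2, the most abundant Ragulator gene, averaged 79.9 ± 16.7 CPM in KI LIF, 69.7 ± 18.6 in KI LIF/2i, 82 ± 0.154 in WT LIF (n = 2) and 77 ± 14.8 in WT LIF/2i (SD, n = 3 where not given). The coding sequences of these small proteins are short, and Lamtor1, Lamtor3 and Lamtor5 reached at most 14.5 CPM. The median log2 differences of the Ragulator list were -0.14 in LIF/2i and -0.03 in LIF for KI against WT, and -0.27 between the media in both genotypes.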

How the data were processed

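RNA was sequenced from 12 libraries of mouse embryonic stem cells. The authors deposited raw counts per gene over the coding sequence of 1 transcript, per the file headers. Tools listed in the submitters' processing notes, with no role given, are Bowtie 1.3.0, cutadapt 3.4 and UMI-tools 1.0.1. The sources used here do not give the build, the annotation or the handling of strand and of reads with several matches. Of 22155 transcripts found in GENCODE M21, 21766 had the table's symbol.

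Counts were fitted with edgeR 4.0.16 in R 4.3.3 (filterByExpr with a minimum count of 10, TMM factors 0.946 to 1.04, glmQLFit with 1 mean per group over 11 samples, biological coefficient of variation 0.234). Each contrast was tested two-sided, with Benjamini-Hochberg adjustment over 13229 genes at 0.05. The SE comes from the F statistic. Members, lists and tests were chosen with earlier results of these data known. The genes named were the members, every called gene of the pathway lists with up to 2 others per list by mean CPM, up to 4 neighbours on each side of Rragb and the 5 genes most like it.

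Same-numbered KI samples deviated together across media (r = 0.524, 0.405 and 0.244), as the data show and not the labels. KI samples with unlike numbers had r of -0.443 to 0.0805, except KI LIF replicate 3 with KI LIF/2i replicate 2, at 0.233. The data thus do not settle which KI LIF/2i library goes with KI LIF replicate 3. Other comparisons had a same-numbered pair under 0.1. Alternatives were DESeq2 1.42.0, its size factors, no filter, a replicate block, 12 libraries kept apart and leaving out each library. Leaving out the agreeing WT LIF pair and the block within KI were added after seeing the data.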

Additional observations from a re-analysis of the deposited data

How the results depend on the processing

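Of 910 log2 fold changes of members under alternatives, 859 kept their sign and their side of the threshold, 14 newly passed, 5 no longer passed and 32 changed sign. The sign changes fell on 18 of 50 combinations of member and contrast, none with a log2 difference over 0.55 in size. The 5 lost calls were Rragb for KI against WT in LIF/2i, the contrast that chose it. They were lost without KI LIF/2i replicate 2 or 3 or without WT LIF/2i replicate 1, 2 or 3. The causes were not tested.

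Members called in LIF numbered 1 with DESeq2. Between the media DESeq2 called 1 in KI and 2 in WT, the replicate block over 12 libraries 2 in WT, 12 libraries kept apart 2 in WT, and the replicate block within KI 1 in KI. The 2 in WT were Depdc5 and Rragb each time, and the Rragb value is not independent of its choice. Leaving out each library gave 0 to 2 members for KI against WT in LIF/2i, 0 to 1 in LIF, and 0 to 1 between the media in KI and in WT. The 2 in LIF/2i were Rragb and Mtor, without KI LIF/2i replicate 1. The choice used that contrast, so the members' calls in it are a description and no support.

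Over all genes, KI against WT in LIF/2i had 293 calls, 917 with DESeq2, 566 with the replicate block, 522 with 12 libraries kept apart, 160 without the agreeing WT LIF pair and 64 to 996 with a library left out. In LIF the 19 calls became 211 with DESeq2, 42 without the filter, 174 with the replicate block, 142 with 12 libraries, 2 without the pair and 1 to 53 with a library left out. Between the media, KI had 1197 calls, 2006 with the replicate block within KI and 498 to 1337 with a library left out. WT had 1714 calls, 2856 with the replicate block, 2737 with 12 libraries, 766 without the pair and 390 to 2167 with a library left out. The test of genotype by medium called 22 genes with DESeq2, 2 with the block, 1 with 12 libraries, 1 without the pair and 0 to 4 with a library left out.

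Pathway genes called for KI against WT in LIF/2i numbered 4 with DESeq2 and 0 to 4 with a library left out. Between the media they numbered 0 to 4 in KI and 2 to 8 in WT with a library left out, and 2 in WT without the agreeing pair.

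Without the agreeing pair, the log2 difference between KI and WT in LIF was 0.05 for Rraga, 0.08 for Rragc and -0.05 for Nprl2, each with the other sign than before, and that between the genotypes' medium responses was 0.10 for Rraga and -0.02 for Mtor. The genotype by medium difference of Rraga was 0.01 both with DESeq2 and with its size factors. With a library left out, the ranges that crossed 0 were -0.10 to 0.27 for Rragc, -0.34 to 0.45 for Rragd and -0.23 to 0.28 for Nprl3 for KI against WT in LIF/2i. In LIF they were -0.43 to 0.21 for Rragd, -0.03 to 0.15 for Flcn and -0.02 to 0.16 for Nprl2. Between the media they were -0.12 to 0.04 for Rraga, -0.00 to 0.39 for Rragc, -0.01 to 0.48 for Nprl3, -0.50 to 0.33 for Mtor and -0.05 to 0.00 for Rptor in KI, and -0.12 to 0.06 for Rraga in WT. For genotype by medium they were -0.14 to 0.08 for Rraga, -0.37 to 0.02 for Rragc, -0.85 to 0.04 for Rragd and -0.29 to 0.56 for Mtor.

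Depth limits Rragb in WT LIF/2i, where WT replicate 3 held 5 counts, and Prr5l and Foxr2.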

Other observations

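Some pathway genes outside the naming rule, chosen after their values were seen, separated KI replicate 1 from KI replicates 2 and 3. Ddit4, which encodes the stress-induced mTORC1 inhibitor REDD1, had 86.9, 26.1 and 19.5 CPM in KI LIF, 43.1, 13.3 and 16.8 in KI LIF/2i, 58.1 and 85.6 in WT LIF, and 71.4, 50.1 and 125 in WT LIF/2i. KI replicates 2 and 3 were below every WT sample, and KI replicate 1 lay just above both WT samples in LIF and below every WT library in LIF/2i. The log2 difference between KI and WT was -1.73 ± 0.57 in LIF/2i and -0.71 ± 0.62 in LIF, and neither passed edgeR's test (adjusted p = 0.123 and 0.746). Bmt2, which encodes the S-adenosylmethionine sensor also called SAMTOR, had 30.1, 19.6 and 22 CPM in KI LIF, 57.4, 23.2 and 28 in KI LIF/2i, 28.7 and 24.6 in WT LIF, and 50.9, 47.6 and 46.2 in WT LIF/2i. Itfg2, a KICSTOR gene, ran the other way around its WT level, with 63, 29 and 31.7 CPM in KI LIF and 48, 34.1 and 40.4 in KI LIF/2i, against 30.1 and 22 in WT LIF and 33.8, 28.1 and 31.3 in WT LIF/2i. What sets replicate 1 apart was not tested.

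Atf4, whose translation eIF2α phosphorylation raises, was measured here as RNA. It had 263, 331 and 388 CPM in KI LIF, 250, 351 and 381 in KI LIF/2i, 391 and 387 in WT LIF, and 258, 259 and 213 in WT LIF/2i. KI and WT libraries overlapped in both media.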
